A study of Mus musculus with 20 samples.

Results

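The data compared here are those of dermal fibroblasts from old and young female mice that both ate a normal diet (ND). Every array whose label named the Old ND or the Young ND group was taken, which gave 10 of the 20 arrays of the series, 5 arrays of 5 mice in each group. Old ND mice entered at 9 months of age, had free access to the diet for 9 months and were collected at 18 months. Young ND mice were 4 weeks old when they started 4 weeks of the same diet, and their age at collection is not stated. The other 10 arrays came from old mice on 30% caloric restriction (Old CR) and from restricted mice that returned to the normal diet (Old CR-ND), and served here only to estimate the spread between mice. Strain and genotype are not given in the sources used here. The subdermis was removed from the skin before collagenase digestion, and 10000 cells per mouse were sorted that carried Pdgfra and CD34 and lacked CD45, CD117, CD24, CD31 and EpCam. Amplification of the RNA took 20 cycles, and each Affymetrix mouse array received 8 µg of labelled cDNA.

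Dermal fibroblasts build the collagen matrix of the skin, and they are professional secretory cells. Procollagen chains enter the endoplasmic reticulum through the translocon, are hydroxylated and folded there, and leave in COPII vesicles for the Golgi, while COPI vesicles and KDEL receptors bring escaped resident proteins back. The same cells send signals to neighbouring epithelium, nerves, vessels and immune cells, which is why ligands, receptors and complement are described after the secretory genes. The values are log2 levels on an array, so a difference of 1 is a 2-fold change, and differences are given as Old ND minus Young ND ± the standard error, which limma estimates from 5 arrays in each group and the spread of the whole series. A gene is said to rise or fall where its adjusted p over the 17097 genes measured lay under 0.05. Lists of genes are described by counts and medians and were not tested as sets.

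The arrays carried the RNA of fibroblasts in both groups. The mean level of 10 fibroblast markers lay between 11.02 and 11.11 on the Old ND arrays and between 11.05 and 11.15 on the Young ND arrays, and Dcn, the small proteoglycan that marks these cells, had a mean of 13.21 in Old ND and of 13.19 in Young ND. The 3 markers of this list that fell were Col1a1, Col3a1 and Cd34. Cd34 was a marker of the sort and had a mean of 11.01 in Old ND, against 11.30 in Young ND (difference -0.30 ± 0.09, adjusted p = 0.0303, a call lost when any 1 of 5 arrays was left out), and the other, Pdgfra, had 6.20 in Old ND, against 5.71 in Young ND (adjusted p = 0.0699, not passed, although the call appeared without Old ND replicate 2 or Young ND replicate 4). Of the 5 genes sorted against, Ptprc, which encodes CD45, stayed near the bottom of the scale (3.26 in Old ND and 3.25 in Young ND), and Cd24a fell (-1.17 ± 0.21, adjusted p = 0.000691). Transcripts of keratinocytes were present in both groups. The mean level of 10 keratinocyte markers ranged between 5.72 and 8.03 over the Old ND arrays and between 6.13 and 7.24 over the Young ND arrays, 0 of the 10 passed the test, and Krt5, a basal keratin, read 10.49, 7.77, 7.6, 7.88 and 9.69 in Old ND, against 8.85, 8.79, 7.76, 9.1 and 9.75 in Young ND. Of 11 macrophage markers 5 lay at or below the lower quartile of gene levels (4.54), the mean of the list was 4.90 to 5.13 in Old ND and 4.89 to 5.01 in Young ND, and 1 member, Csf1r, fell. The other 10 macrophage markers lay at or above 0 and did not pass, with Cd68 at 0.94 (adjusted p = 0.068) and Lyz2 at 0.31 (adjusted p = 0.565). Whether such transcripts take part in the differences below was not tested, and in sorted bulk RNA fewer cells of a type and less RNA per cell cannot be told apart. The numbers in the array titles fall into 2 separate runs, with 3 arrays of each group in the first run and 2 of each in the second. In a fit of all 20 arrays with run and group as terms, 2934 genes differed by run, so differences within each run are given where they matter.

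Old and young fibroblasts differed in 1870 of the 17097 genes (10.9%). Falls outnumbered rises, with 1109 genes lower in Old ND (6.49%) and 761 higher (4.45%). With genes below the median level left out, 1053 of the remaining genes fell and 668 rose. Shares over all genes therefore lie below those among brighter genes, and lists of bright genes stand against a larger background than the shares quoted beside them. Most differences were small: the median size among the 1870 genes was 0.52, and 110 genes rose (0.643%) and 117 fell (0.684%) by at least 2-fold. The median difference over all genes was 0.00. The arrays of the 2 groups did not overlap at all for 1262 genes (7.38%), of which 486 were higher in Old ND (2.84%) and 776 were lower (4.54%). Of the 1870 genes, 1864 had the same sign in both runs. Because the 1870 were called over both runs together, such agreement is largely set by their selection. Among 38 lists of at least 10 measured genes, the early secretory pathway and collagen processing had the highest shares of genes that fell, and complement had the highest share that rose. The lists were chosen with earlier results of these data known, so this ranking is not independent of the data.

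**Figure D1:**
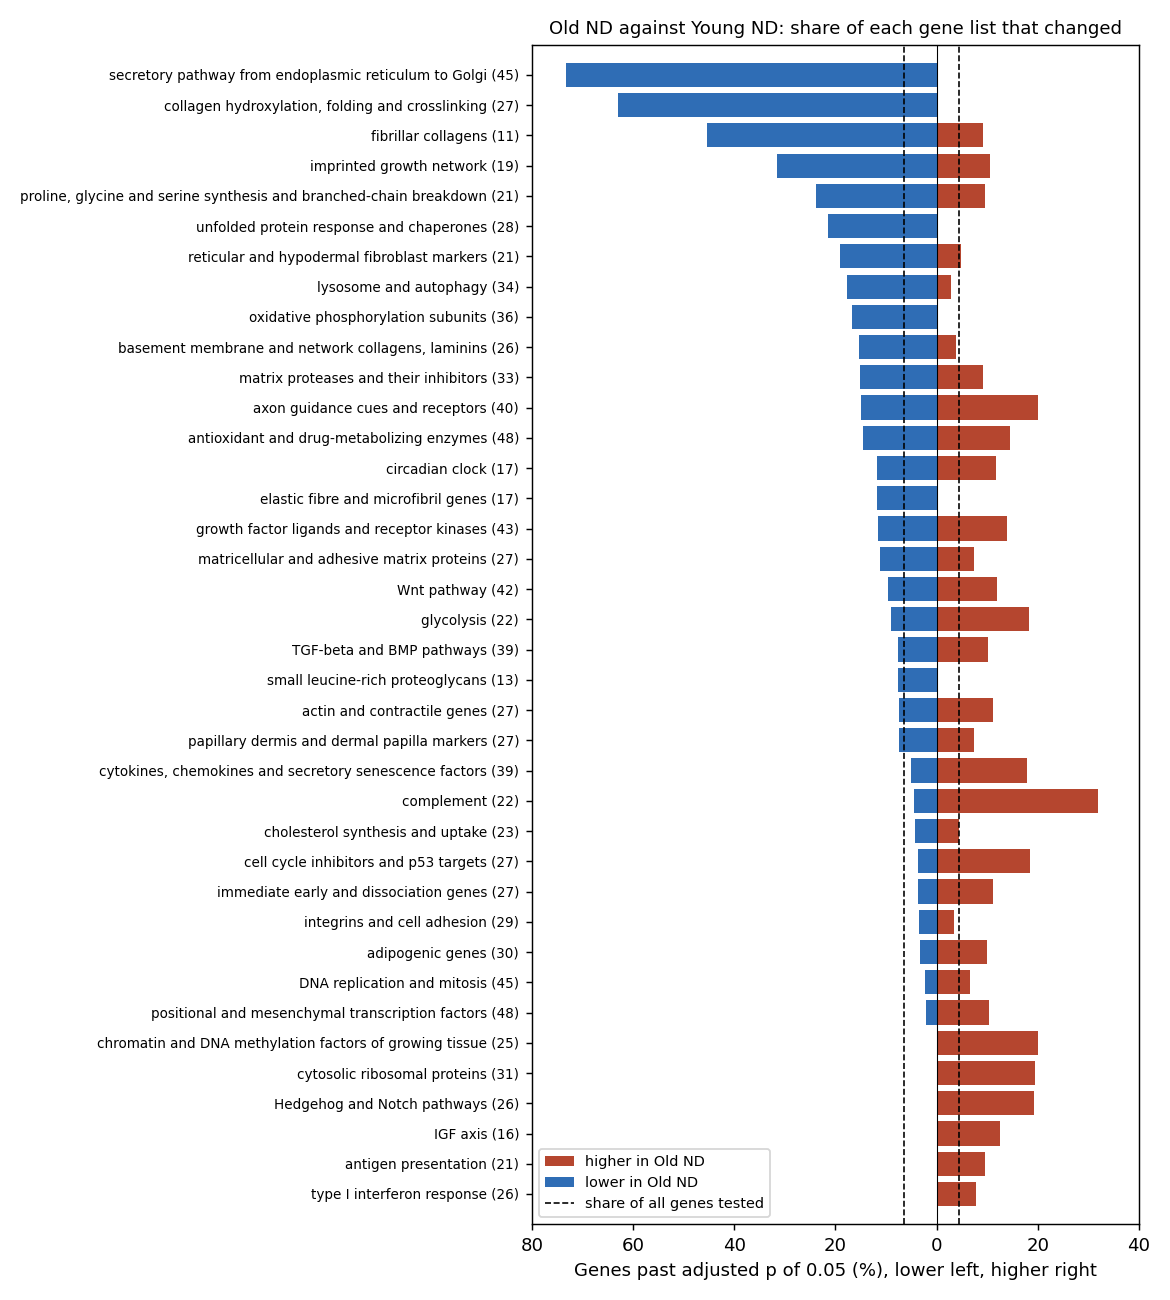
Share of each gene list that passed the test in Old ND against Young ND, with rises to the right in red and falls to the left in blue, in percent of the measured genes of the list (their number is in parentheses). The dashed lines mark the shares over all 17097 genes, 4.45% higher and 6.49% lower. In the secretory list 73.3% of the genes fell and in the collagen processing list 63.0%, and 31.8% of the complement list rose. The lists were chosen with earlier results of these data known.

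The machinery that carries new proteins from the endoplasmic reticulum to the Golgi was lower in old fibroblasts along nearly its whole length. Of 45 measured genes, 33 fell and 0 rose, against 6.49% of all genes that fell, and the median difference was -0.59, against 0.00 over all genes. The list is bright, with 44 of the 45 above the median gene level. Taken by run, the median was -0.60 in the first and -0.53 in the second, and between 30 and 35 genes fell when any 1 array was left out. The mean level of the 45 genes lay between 8.82 and 9.03 on the Old ND arrays and between 9.45 and 9.62 on the Young ND arrays. No Old ND array reached the lowest Young ND array. For 32 of the 45 genes each of the 5 Old ND arrays lay below all 5 Young ND arrays, against 4.54% of all genes.

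The start sites of 4 of these genes are shown because they share a short motif. TGACGTGG, or CCACGTCA on the other strand, is known as an element bound by the unfolded protein response factors XBP1 and ATF6. The 300 bases run from 250 bases before the transcription start, 5′ to 3′ on the strand of the gene, taken from RefSeq on GRCm38.p6, and the capitals mark the motif. They are chr9:98563481-98563780 on the plus strand for Copb2, chr15:79516158-79516457 on the plus strand for Kdelr3, chr12:59011968-59012267 on the minus strand for Sec23a and chr3:123267246-123267545 on the plus strand for Sec24d.
Copb2: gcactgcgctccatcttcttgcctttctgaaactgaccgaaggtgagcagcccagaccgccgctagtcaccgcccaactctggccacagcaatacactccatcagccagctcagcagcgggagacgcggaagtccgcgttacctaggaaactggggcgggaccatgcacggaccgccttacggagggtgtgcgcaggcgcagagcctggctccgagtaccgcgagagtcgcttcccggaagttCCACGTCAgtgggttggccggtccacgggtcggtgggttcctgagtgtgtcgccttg
Kdelr3: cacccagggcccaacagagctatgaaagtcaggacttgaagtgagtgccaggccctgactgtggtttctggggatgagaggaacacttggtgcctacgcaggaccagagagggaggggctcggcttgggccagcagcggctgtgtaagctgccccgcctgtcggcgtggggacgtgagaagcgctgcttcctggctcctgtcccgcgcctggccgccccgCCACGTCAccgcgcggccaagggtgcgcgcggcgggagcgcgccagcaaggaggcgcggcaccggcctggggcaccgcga
Sec23a: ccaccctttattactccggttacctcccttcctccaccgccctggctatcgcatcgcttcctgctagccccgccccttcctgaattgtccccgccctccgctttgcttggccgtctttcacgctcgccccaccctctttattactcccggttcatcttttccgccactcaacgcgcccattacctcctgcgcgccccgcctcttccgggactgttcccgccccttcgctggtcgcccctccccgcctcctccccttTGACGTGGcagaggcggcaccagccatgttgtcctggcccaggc
Sec24d: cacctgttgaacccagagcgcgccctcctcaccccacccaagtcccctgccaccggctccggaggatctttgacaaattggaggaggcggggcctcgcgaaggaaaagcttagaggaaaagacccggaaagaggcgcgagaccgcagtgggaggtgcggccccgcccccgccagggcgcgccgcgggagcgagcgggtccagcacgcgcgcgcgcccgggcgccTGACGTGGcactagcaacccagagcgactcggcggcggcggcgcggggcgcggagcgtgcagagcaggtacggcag
The first base of the motif lay at -7, -30, 6 and -26 relative to the start base, which is counted as 0, in the order Copb2, Kdelr3, Sec23a and Sec24d. Of the 45 secretory genes 36 had a promoter in the table, and these 4 held the motif on either strand (11.1%). Of the 36, 27 fell, 4 of them with the motif (14.8%), and 9 did not pass, 0 of them with it. Because most of the 36 fell, 4 genes cannot show whether the motif goes with the fall inside the list. Of all measured genes with a promoter 132 of 13605 held it (0.970%), and 222 of all 32851 promoters in the table did (0.676%). Among genes that fell 22 of 896 held it (2.46%), and among genes that rose 1 of 579 (0.173%). The GC content of the promoters was 61.5% for genes that fell, 60.3% for genes that rose and 58.4% for all. The related letters TGACGTCA, the cyclic AMP response element, which reads the same on both strands, were found in 3.24% of genes that fell, 2.59% of genes that rose and 2.93% of all. CCACG, which lies inside the motif above and was searched on both strands, was found in 60.3% of genes that fell, 47.15% of genes that rose and 45.7% of all. CCAAT, searched on both strands, was found in 38.8% of genes that fell, 39.9% of genes that rose and 42.3% of all. Other genes with the motif that fell, chosen after their values were seen, were Sec16b, a scaffold at COPII exit sites (-0.87 ± 0.16), Txndc5, an oxidoreductase of the endoplasmic reticulum (-0.74 ± 0.09), Arf1, the GTPase that recruits COPI (-0.33 ± 0.08), its exchange factor Gbf1 (-0.86 ± 0.20, and -0.28 averaged over its probe sets) and Scfd1, which acts in vesicle fusion at the Golgi (-0.54 ± 0.11, and -0.25 averaged over its probe sets). The genes just named were picked for known roles at the endoplasmic reticulum or Golgi. Others with the motif fell too, among them Dhx32 (-0.77 ± 0.16), Cdk7 (-0.66 ± 0.13), Xpnpep1 (-0.60 ± 0.08) and Dhx40 (-0.52 ± 0.09). The shares above describe letters in a window and carry no test.

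Of 11 measured genes of the COPII coat, which buds vesicles off the endoplasmic reticulum, 9 fell. Sec24d, a cargo-binding subunit that is needed for procollagen export in fish, read 8.05, 7.71, 8.02, 8.24 and 8.24 in Old ND, against 9.05, 9.2, 9.12, 9.03 and 9.24 in Young ND. The highest Old ND array lay below the lowest Young ND array, and Sec24d was 2.11-fold lower in Old ND (-1.08 ± 0.09, adjusted p = 1.37e-07). Its paralogs differed by -0.62 ± 0.10 for Sec24a (-1.01 averaged over its 2 probe sets), -0.32 ± 0.09 for Sec24b (adjusted p = 0.0344, a call lost when any 1 of 7 arrays was left out) and -0.16 ± 0.08 for Sec24c (adjusted p = 0.233, not passed). The inner coat partner Sec23a fell by 0.86 ± 0.12, the outer coat subunits Sec31a by 0.89 ± 0.15 and Sec13 by 0.61 ± 0.12, and the GTPases that start coat assembly, Sar1a and Sar1b, by 0.75 ± 0.07 and 0.61 ± 0.11. Sec16a, the exit site scaffold, fell by 0.52 ± 0.07. Mia3, which loads collagen into COPII carriers and is also called TANGO1, fell by 0.57 ± 0.12 (adjusted p = 0.00264).

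The return route fell as well, with 6 of 6 measured list genes for the COPI coat and its GTPase, and 3 of 3 KDEL receptors. The list does not cover every COPI gene, and Arf1 for example is not on it. Copz2, a COPI subunit, had the smallest adjusted p of the list (5.7e-08) and read 10.18, 10.36, 10.51, 10.57 and 10.49 in Old ND, against 11.55, 11.46, 11.29, 11.5 and 11.57 in Young ND. The highest Old ND array lay below the lowest Young ND array, and the difference was -1.05 ± 0.08. Cope fell by 0.72 ± 0.07, Copb2 by 0.80 ± 0.12, Copa by 0.69 ± 0.10, Copg1 by 0.57 ± 0.07 and the GTPase Arf4 by 0.30 ± 0.07. Kdelr3, one of the receptors that retrieve chaperones bearing a KDEL tail, read 9.03, 8.66, 8.78, 8.71 and 8.8 in Old ND, against 10.2, 10.27, 9.99, 9.95 and 10.09 in Young ND. It was 2.47-fold lower with no overlap (-1.30 ± 0.12, adjusted p = 2.5e-07), and Kdelr1 (-0.62 ± 0.07) and Kdelr2 (-0.56 ± 0.06, and -0.86 averaged over its 2 probe sets) fell as well. Among cargo receptors Lman1, which carries glycoproteins such as clotting factors, read 9.79, 9.55, 9.95, 9.75 and 9.54 in Old ND, against 10.94, 10.87, 10.68, 10.65 and 10.94 in Young ND. Again the groups did not overlap (-1.10 ± 0.10, adjusted p = 2.39e-07), and Surf4, another cargo receptor, fell by 0.81 ± 0.08. Of 4 p24 proteins Tmed3 (-1.02 ± 0.10) and Tmed10 (-0.29 ± 0.09) fell, the Tmed10 call being lost when any 1 of 6 arrays was left out.

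At the entrance to the pathway both measured channel subunits fell, Sec61a1 by 0.48 ± 0.12 and, with overlapping arrays, Sec61b by 0.83 ± 0.18. All 4 genes of the translocon-associated complex fell, with Ssr2 at -1.10 ± 0.12, Ssr4 at -0.87 ± 0.14, Ssr1 at -0.59 ± 0.09 and Ssr3 at -0.49 ± 0.07. Averaged over its 3 probe sets Ssr4 changed by -0.28. Of 4 genes of the oligosaccharyltransferase, which adds sugars to entering chains, 3 fell. Ostc read 8.84, 8.68, 8.58, 8.79 and 8.83 in Old ND, against 9.96, 10.1, 9.62, 9.79 and 10.05 in Young ND, with no overlap between the groups (-1.16 ± 0.09, adjusted p = 8.25e-08, and -0.62 averaged over its 2 probe sets). Rpn1 fell by 0.66 ± 0.16 and Ddost by 0.32 ± 0.09, a call lost without either of 2 arrays. The 4 measured signal peptidase genes lay between -0.33 and -0.05, and 0 passed.

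The list holds a pair of membrane-bound transcription factors, of which 1 fell. Creb3l1, which is cleaved at the Golgi and is known to drive collagen and secretory genes in bone cells, read 9.14, 9.13, 9.13, 8.96 and 8.85 in Old ND, against 10.35, 10.35, 10.12, 9.66 and 9.88 in Young ND. All Old ND arrays were lower than all Young ND arrays, and Creb3l1 was 2.04-fold lower in Old ND (-1.03 ± 0.15, adjusted p = 6.63e-05). Its paralog Creb3l2 read 9.11, 8.64, 8.98, 8.56 and 8.15 in Old ND, against 9.05, 8.95, 8.72, 8.09 and 8.45 in Young ND. Those arrays overlapped throughout (0.04 ± 0.19, adjusted p = 0.942, not passed). The difference between the 2 paralogs was not tested. Outside the list, the related gene Creb3l3 was 6.02-fold lower in Old ND without overlap (-2.59 ± 0.12, adjusted p = 7.61e-12).

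**Figure D2:**
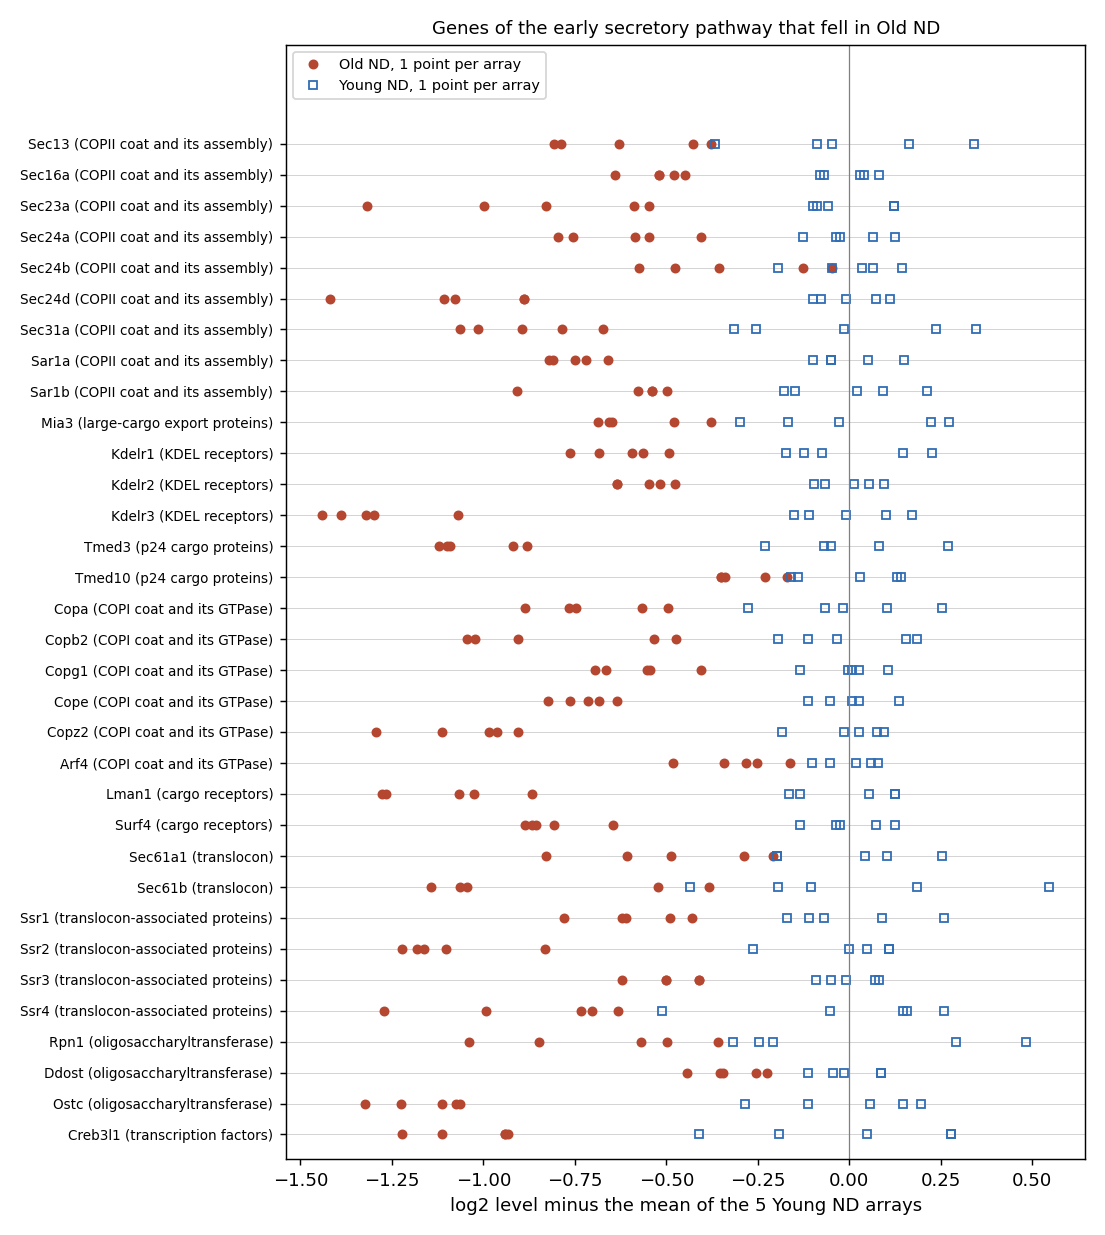
Levels of the 33 early secretory genes that fell, as log2 level minus the mean of the 5 Young ND arrays, with 1 filled red point per Old ND array and 1 open blue square per Young ND array. Genes are ordered by role, and Kdelr3, Ostc, Lman1, Ssr2, Sec24d and Copz2 stand at differences of -1.05 or lower.

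Of 28 measured chaperones and other genes of the unfolded protein response, 6 fell (21.4%, against 6.49% of all genes) and 0 rose. Their median was -0.16, and 24 of the 28 lay below 0. Also, 24 of the 28 lay above the median gene level, where the share of genes that fell was higher than 6.49%. Hspa5, the main chaperone of the endoplasmic reticulum, read 10.51, 10.18, 10.25, 10.58 and 10.52 in Old ND, against 10.04, 10.2, 10.28, 10.39 and 10.57 in Young ND. Its arrays overlapped (0.11 ± 0.11, adjusted p = 0.623, not passed), as did those of Hsp90b1 (-0.12 ± 0.06, adjusted p = 0.264, not passed). Those that fell included the disulfide isomerase Pdia5 (-0.93 ± 0.13), the export channel component Derl1 (-0.50 ± 0.08), the Hspa5 cofactor Sdf2l1 (-0.58 ± 0.14) and the transcription factor Xbp1 (-0.37 ± 0.09, adjusted p = 0.00753).

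Enzymes that modify, fold and crosslink collagen were lower in Old ND. Of 27 measured genes, 17 fell and 0 rose, with a median of -0.47, and 10 fell and 1 rose within the second run alone. P3h4, a member of the complex that supports lysine hydroxylation of collagen, had the smallest adjusted p (1.62e-08) and read 7.57, 7.7, 7.81, 7.87 and 7.77 in Old ND, against 8.8, 8.92, 8.75, 8.73 and 8.84 in Young ND. The groups did not overlap (-1.06 ± 0.08). The related P3h1, a prolyl 3-hydroxylase, fell by 0.99 ± 0.13, and Crtap and Ppib, which sit with P3h1 in 1 complex, fell by 0.47 ± 0.09 and 0.53 ± 0.09. Plod1, which hydroxylates collagen lysines, read 8.1, 7.29, 8.28, 7.34 and 7.12 in Old ND, against 9.63, 9.54, 8.93, 8.57 and 8.69 in Young ND. It fell by 1.45 ± 0.25 without overlap (adjusted p = 0.000481, and -0.83 averaged over its 2 probe sets), and Plod3 fell by 0.54 ± 0.13. Serpinh1, the collagen chaperone HSP47, fell by 0.79 ± 0.08, and P4hb, which is both a disulfide isomerase and a prolyl hydroxylase subunit, by 0.28 ± 0.07 (adjusted p = 0.0148, a call lost without Young ND replicate 5).

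Of the 5 measured genes that trim procollagen outside the cell 2 fell, Pcolce and Bmp1, while Pcolce2 (-0.12), Tll1 (0.64) and Adamts3 (-0.06) did not pass. Pcolce, which speeds the removal of the procollagen C-propeptide, read 9.01, 8.84, 8.92, 9.04 and 9.26 in Old ND, against 10.11, 9.93, 9.73, 9.73 and 9.93 in Young ND. There was no overlap (-0.87 ± 0.11, adjusted p = 1.18e-05). The proteinase it helps, Bmp1, fell by 0.54 ± 0.11 (and by 0.35 averaged over its 3 probe sets). Of the 5 measured lysyl oxidases, which start the crosslinks, 4 fell and Loxl3 (0.36, adjusted p = 0.0984) did not pass. The falls were Loxl2 by 1.09 ± 0.12, Loxl4 by 0.85 ± 0.14, Lox by 0.82 ± 0.22 with overlapping arrays, and Loxl1 by 0.41 ± 0.10 (a call lost when averaged over its probe sets, adjusted p = 0.0862). Of 11 fibrillar collagen genes 5 fell (45.5%, against 6.49% of all genes) and 1 rose (9.09%, against 4.45%). Col5a2, a chain of the collagen that sets fibril diameter, fell by 1.06 ± 0.10, Col5a1 fell by 0.98 ± 0.12 and Col5a3 fell by 1.72 ± 0.20, while Col27a1, a collagen of cartilage and other tissues, rose by 0.48 ± 0.10 (and by 0.85 averaged over its 2 probe sets). Col1a1 and Col3a1 lay near the top of the scale in both groups and fell by 0.48 ± 0.08 and 0.27 ± 0.07, and averaged over its 2 probe sets Col3a1 changed by -1.62.

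Of 48 antioxidant and drug-metabolizing genes 7 rose and 7 fell (14.6% each, against 4.45% and 6.49% of all genes). However, 37 of the 48 lay above the median gene level, where larger shares of genes rose and fell. Among the falls 3 were peroxidases of the endoplasmic reticulum. Gpx7, a peroxidase of the endoplasmic reticulum that uses peroxide to form disulfides, read 8.19, 7.53, 7.84, 7.99 and 7.88 in Old ND, against 9.32, 9.33, 8.91, 9.09 and 9.29 in Young ND. It was 2.47-fold lower with no overlap (-1.30 ± 0.14, adjusted p = 1.5e-06). Its paralog Gpx8 fell by 0.81 ± 0.13, and Prdx4, the peroxiredoxin of the same compartment, by 0.81 ± 0.16 (and by 0.49 averaged over its probe sets). Of 21 measured genes for proline, glycine, serine and branched-chain metabolism 5 fell (23.8%) and 2 rose, with a median of -0.01. Aldh18a1, which makes the precursor of proline, read 5.82, 5.86, 6.63, 7.0 and 6.81 in Old ND, against 7.63, 7.74, 7.7, 7.99 and 8.06 in Young ND. The lowest readings were Old ND replicates 1 and 2, and the groups stayed apart (-1.40 ± 0.19, adjusted p = 4.43e-05). Outside that list, Aldh1l2, a mitochondrial enzyme of folate metabolism and one of the 20 largest falls, read 3.6, 4.06, 4.01, 4.13 and 3.86 in Old ND, against 7.24, 6.83, 5.65, 6.05 and 6.58 in Young ND, and its Old ND level lay below the lower quartile of gene levels, where background compresses the scale (-2.54 ± 0.20, adjusted p = 4.73e-08). Psat1 of serine synthesis (-0.49 ± 0.12), Asns, which makes asparagine (-0.76 ± 0.18), and the leucine carrier subunit Slc7a5 (-0.62 ± 0.15) fell with overlapping arrays, whereas the glutamine carrier Slc1a5 rose without overlap (0.90 ± 0.12).

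**Figure D3:**
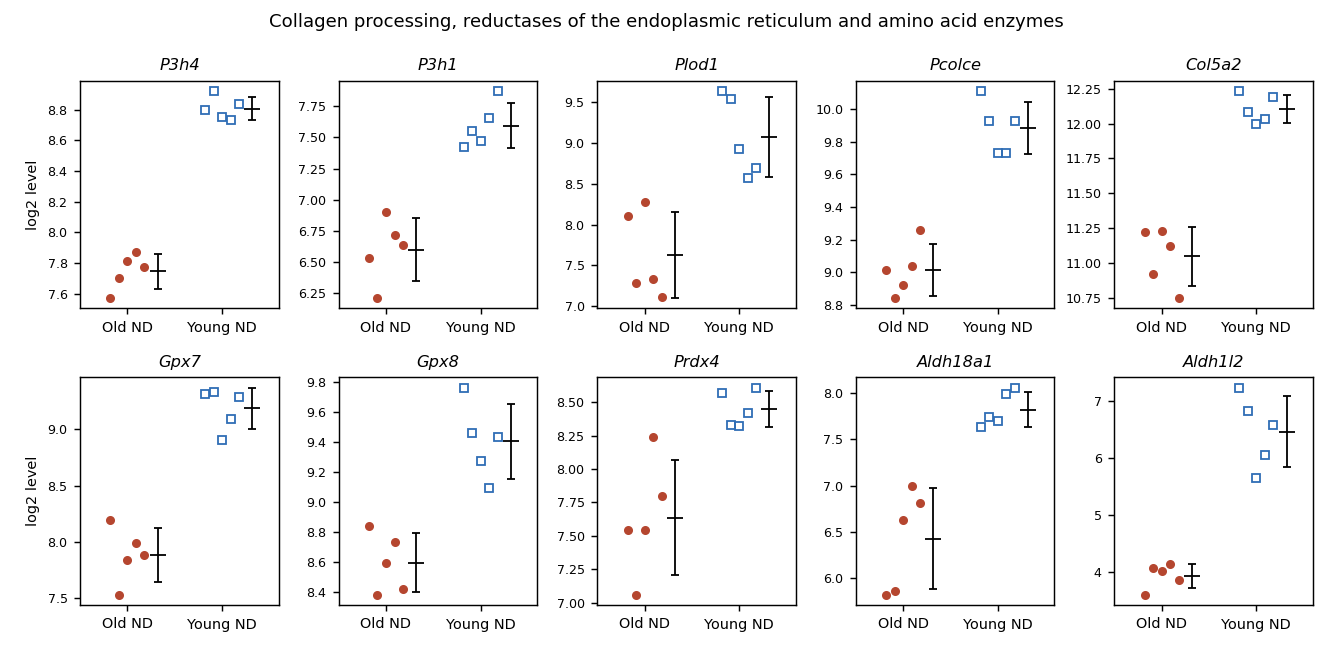
Log2 levels of 10 genes of collagen processing, of the oxidoreductases of the endoplasmic reticulum and of amino acid metabolism in Old ND (filled red circles) and Young ND (open blue squares), 1 point per array, with the mean and SD of the 5 arrays in black. Each panel has its own axis that does not start at 0. In all 10 genes the 5 Old ND arrays lie below the 5 Young ND arrays.

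Other matrix lists changed in few members, and the shares below stand against 4.45% of all genes that rose and 6.49% that fell. Of 26 genes of basement membranes and network collagens 4 fell (15.4%) and 1 rose (3.85%), although 4 rose without Old ND replicate 5. Col4a5 stood at -1.51 ± 0.19 (-0.82 averaged over its 2 probe sets). Its Old ND mean of 3.95 lay below the lower quartile of gene levels, near background. Col15a1 stood at -0.57 ± 0.14, Col16a1 at -0.58 ± 0.12 and Agrn, a heparan sulfate proteoglycan, at 1.06 ± 0.27. Of 13 small leucine-rich proteoglycans 1 fell (7.69%) and of 17 elastic fibre genes 2 fell (11.8%). Of 29 integrins and adhesion genes 1 rose and 1 fell (3.45% each). Of 27 matricellular genes 2 rose (7.41%) and 3 fell (11.1%), but 1 fell without Old ND replicate 2 or Young ND replicate 1 or 2. Among them Ccn2, also called CTGF, rose by 0.77 ± 0.13. Has2, a hyaluronan synthase, fell by 0.64 ± 0.16 with overlapping arrays. Of 33 matrix proteases and inhibitors 3 rose (9.09%) and 5 fell (15.2%), and 25 of the 33 lay above the median gene level. But 1 to 3 fell without Old ND replicate 4 or 5 or Young ND replicate 1, 2, 3 or 5. The lowest count was that without Young ND replicate 2. Mmp11, stromelysin 3, read 9.43, 8.86, 9.34, 8.79 and 8.36 in Old ND, against 7.83, 7.62, 7.72, 7.12 and 6.94 in Young ND. It was 2.85-fold higher in Old ND without overlap (1.51 ± 0.20, adjusted p = 3.3e-05). Plat, the tissue plasminogen activator, read 8.44, 7.63, 8.41, 8.73 and 8.86 in Old ND, against 7.19, 6.86, 6.87, 6.94 and 6.85 in Young ND. Old ND replicate 2 was the lowest of its group and still lay above all Young ND arrays (1.47 ± 0.20, adjusted p = 3.84e-05). Mmp23, a membrane-tethered metalloproteinase, fell by 0.82 ± 0.10, and Reck, an inhibitor of metalloproteinases, rose by 0.81 ± 0.16 with Young ND replicate 3 inside the Old ND range.

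Guidance cues, which steer axons and vessels, moved in both directions. Of 40 measured genes 8 rose (20.0%, against 4.45% of all genes) and 6 fell (15.0%, against 6.49%), with a median of -0.02. However, 34 of the 40 lay above the median gene level, where larger shares of genes rose and fell. Slit2, a repellent secreted ligand of Robo receptors, read 10.04, 9.51, 10.2, 9.67 and 9.55 in Old ND, against 8.87, 8.38, 8.78, 8.31 and 8.31 in Young ND. The groups stood apart, and Slit2 was 2.4-fold higher in Old ND (1.26 ± 0.14, adjusted p = 2.28e-06). Sema4a, a semaphorin, rose by 1.66 ± 0.25 and its Old ND arrays spread between 6.44 and 8.51, while the netrins Ntn4 and Ntn1 rose by 0.81 ± 0.13 and 0.41 ± 0.08 (the Ntn1 call was lost when averaged over its probe sets, adjusted p = 0.101). Among receptors Nrp1, a semaphorin and VEGF coreceptor, rose by 1.05 ± 0.17, and Unc5b, a netrin receptor, fell by 0.98 ± 0.11, both without overlap. Sema3b, a secreted semaphorin, read 7.62, 8.02, 7.59, 8.26 and 8.17 in Old ND, against 9.67, 9.52, 9.46, 9.23 and 9.16 in Young ND. It was 2.78-fold lower in Old ND (-1.48 ± 0.13, adjusted p = 2.13e-07), and the first run alone gave -1.81 and the second -0.98. Efna1 (-0.75 ± 0.16, and -0.42 averaged over its 2 probe sets) and Efna5 (-0.71 ± 0.17), ligands of Eph receptors, fell, while the receptor Epha3 rose (0.48 ± 0.12). Flrt1, an adhesion ligand of Unc5 receptors, fell by 3.30 ± 0.36, with Young ND replicate 1 well below the other Young ND arrays (6.94 against 9.07 to 9.86).

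Growth factors also split. Of 43 ligands and receptor kinases 6 rose (14.0%, against 4.45% of all genes) and 5 fell (11.6%, against 6.49%). Their median was 0.16, and 3 rose without Young ND replicate 2 or 5. Above the median gene level, where larger shares of genes rose and fell, lay 30 of the 43. Fgf10, a fibroblast signal to epithelium, read 6.89, 6.95, 7.06, 6.49 and 6.21 in Old ND, against 6.05, 5.36, 5.69, 5.47 and 5.57 in Young ND. All Old ND arrays were above all Young ND arrays (1.09 ± 0.14, adjusted p = 2.52e-05). Hgf, which acts on the epithelial receptor Met, rose by 0.84 ± 0.13 (0.53 averaged over its 3 probe sets), and Vegfb by 0.57 ± 0.11. Fgfr4, a receptor for FGFs, read 8.63, 8.96, 8.98, 8.86 and 8.9 in Old ND, against 10.22, 10.39, 10.25, 9.91 and 9.95 in Young ND. It was 2.43-fold lower with no overlap (-1.28 ± 0.12, adjusted p = 3.07e-07). Gas6, the ligand of the Axl family of receptors, fell by 0.98 ± 0.18 (-1.60 averaged over its 2 probe sets), and Pdgfrl, a secreted protein related to the PDGF receptor, fell by 1.16 ± 0.16. In the IGF axis 2 of 16 genes rose (12.5%) and 0 fell. The rises were the fetal growth factor Igf2 (1.85 ± 0.17) and, with overlapping arrays, the binding protein Igfbp4 (1.91 ± 0.45).

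Morphogen pathways changed in a minority of their genes. Of 42 Wnt pathway genes 5 rose (11.9%, against 4.45% of all genes) and 4 fell (9.52%, against 6.49%), and 8 rose without Young ND replicate 1. The rises included Lgr5, a receptor for R-spondins (1.64 ± 0.25, and 0.97 averaged over its 2 probe sets), Wnt9a (0.68 ± 0.12, and 0.44 by the same average) and Fzd7 (0.50 ± 0.11), and the falls included the noncanonical ligand Wnt5a (-0.64 ± 0.16) and its receptor Ror2 (-0.91 ± 0.22), both with overlapping arrays. Of 26 Hedgehog and Notch genes 5 rose (19.2%) and 0 fell. Beside members of the Hedgehog branch, Hey1, a target of Notch, rose by 0.75 ± 0.17, and its Old ND arrays (7.95 to 8.77) lay above the Young ND arrays (7.54 to 7.81). Of 39 TGF-beta and BMP genes 4 rose (10.3%) and 3 fell (7.69%). Only 1 to 2 rose without Old ND replicate 1 or 3 or Young ND replicate 4 or 5, and 1 fell without the first 3 of these. Bmp7, a BMP ligand, stood at -0.92 ± 0.15 and Bambi, a decoy receptor, at 0.82 ± 0.17.

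Complement was the list with the highest share of rises, which lay at the classical and lectin entry of the cascade and, through Cfb, in the alternative pathway. Of 22 measured genes 7 rose (31.8%) and 1 fell, against 4.45% of all genes that rose, and 7 rose when any 1 array was left out. The other 14 did not pass, and the median over the list was 0.09. C1s1, the mouse gene for the protease that cleaves C4 and C2, read 10.45, 10.34, 10.3, 10.63 and 10.73 in Old ND, against 9.49, 9.49, 9.6, 9.34 and 9.38 in Young ND. The groups were far apart relative to their spread (1.03 ± 0.08, adjusted p = 2.82e-08). C4b, whose sequence is close to that of C4a so that the array may not tell them apart, read 10.51, 10.07, 9.26, 10.89 and 11.02 in Old ND, against 8.06, 8.96, 8.74, 9.01 and 8.78 in Young ND. Every Old ND array was higher than every Young ND array (1.64 ± 0.26, adjusted p = 0.000201). The largest rise of the list was that of C2 (2.03 ± 0.18, adjusted p = 2.13e-07). Cfb of the alternative pathway rose by 1.17 ± 0.14 (adjusted p = 8.8e-06), and neither gene overlapped. Masp1 of the lectin pathway rose by 0.76 ± 0.16 (the call was lost when averaged over its 5 probe sets, 0.34, adjusted p = 0.067), the collectin Colec12 by 0.65 ± 0.13 and C1ra by 0.57 ± 0.15 with overlapping arrays. C1s1 and C1ra each have a near-identical copy in the mouse that the array may not tell apart. Cd55, which protects cells by speeding the decay of complement convertases, was the 1 member that fell (-0.67 ± 0.11, adjusted p = 0.000392).

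Among 39 cytokines, chemokines and factors linked to senescence 7 rose (17.9%, against 4.45% of all genes) and 2 fell (5.13%, against 6.49%). Cx3cl1, fractalkine, a membrane-bound chemokine for monocytes and T cells, read 9.68, 9.4, 9.31, 9.08 and 9.14 in Old ND, against 7.98, 7.87, 7.83, 7.26 and 7.29 in Young ND. It was 3.2-fold higher in Old ND without overlap (1.68 ± 0.14, adjusted p = 9.71e-08). Cxcl2, a neutrophil chemokine, rose by 1.41 ± 0.32 with overlapping arrays, and Lifr, a receptor of the IL-6 family, by 0.71 ± 0.14. Csf2rb, the shared receptor chain for GM-CSF, IL-3 and IL-5, which has a near-identical neighbour in the mouse, rose by 1.43 ± 0.22, and Csf1r, the receptor for macrophage growth factor, fell by 1.20 ± 0.10 (adjusted p = 1.41e-07), the 1 of 11 macrophage markers with a difference below 0. Of 21 genes of antigen presentation 2 rose (9.52%) and 0 fell over all arrays. By run, 11 rose within the second and 1 within the first, and 8 rose with run as a block. Without 1 array between 0 and 6 rose, 6 of them without Old ND replicate 3. Of 26 interferon genes 2 rose over all arrays (7.69%), 10 within the second run and 0 within the first. Of 7 markers of dendritic and Langerhans cells, 4 of them antigen presentation genes, 1 rose (Cd74), with a median of 0.30, and 3 rose within the second run and 0 within the first. The mean level of these 7 lay between 6.07 and 6.70 on the Old ND arrays and between 5.95 and 6.37 on the Young ND arrays, and their part in the antigen presentation counts was not tested. In the antigen presentation and interferon lists most calls within a run came from the 2 Old ND and 2 Young ND arrays of the second. Thbd, thrombomodulin, an anticoagulant receptor, rose by 1.63 ± 0.21 (adjusted p = 1.63e-05), and Young ND replicate 1 was the highest of its group at 6.92.

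**Figure D4:**
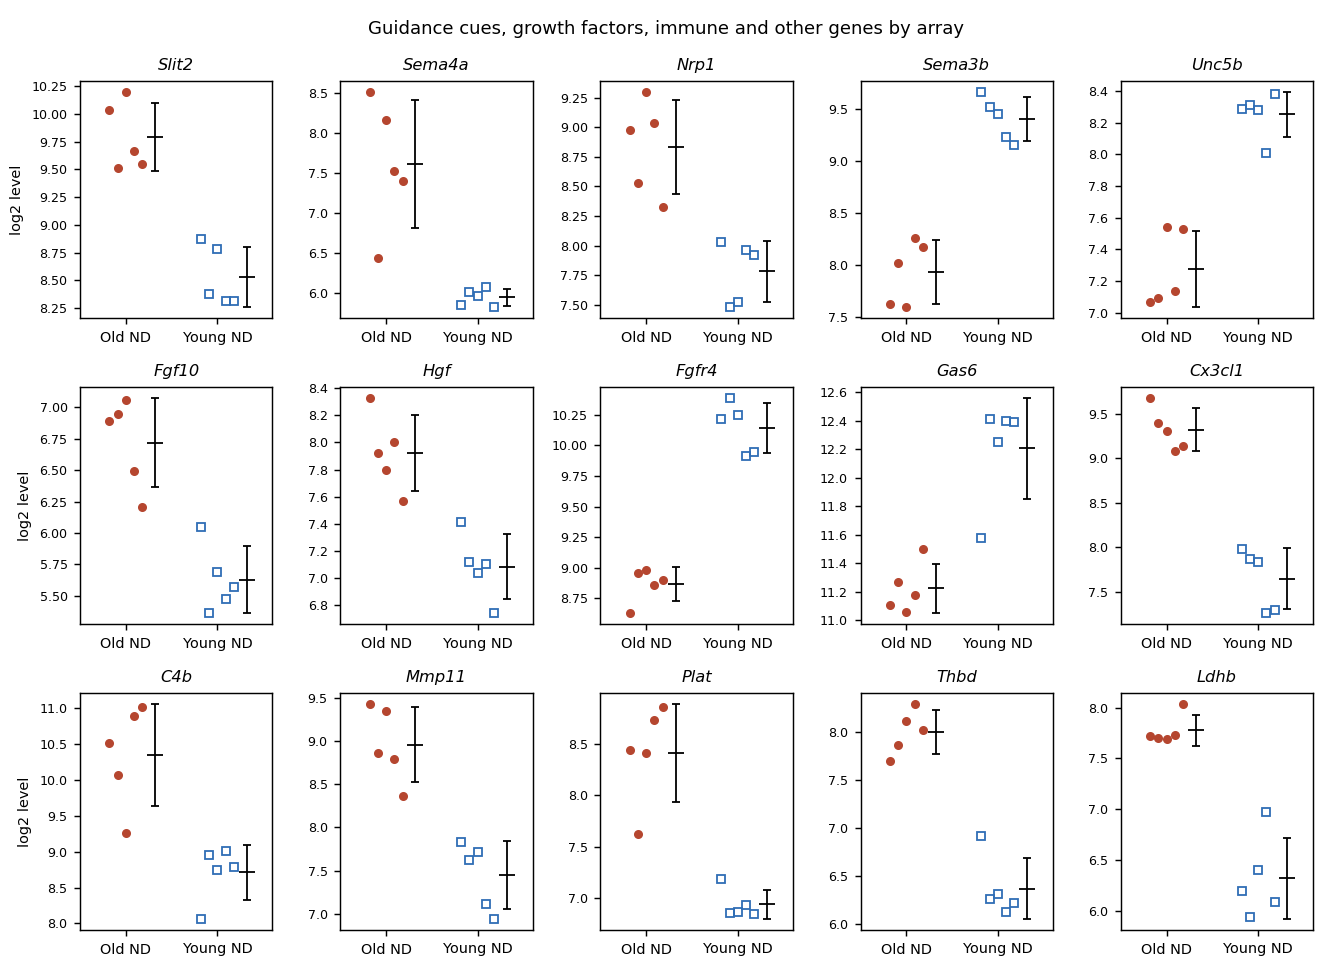
Log2 levels of 15 genes for guidance cues, growth factors, immune and other proteins in Old ND (filled red circles) and Young ND (open blue squares), 1 point per array, with the mean and SD of the 5 arrays in black. Each panel has its own axis that does not start at 0. Old ND lies above Young ND in 11 genes and below it in Sema3b, Unc5b, Fgfr4 and Gas6.

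Glycolysis differed in single enzymes, while oxidative phosphorylation subunits, described at the end, had a median of -0.21 with 31 of 36 below 0. Of 22 glycolysis genes 4 rose (18.2%, against 4.45% of all genes) and 2 fell (9.09%, against 6.49%), with a median of 0.02. Above the median gene level, where larger shares of genes rose and fell, lay 20 of the 22. Ldhb, the heart-type lactate dehydrogenase subunit, read 7.72, 7.7, 7.69, 7.73 and 8.04 in Old ND, against 6.19, 5.94, 6.4, 6.97 and 6.09 in Young ND. It was 2.75-fold higher without overlap (1.46 ± 0.13, adjusted p = 3.04e-07). Eno2, an enolase best known from neurons (1.55 ± 0.20), Slc2a3, a glucose carrier (0.84 ± 0.12), and Tpi1 (0.56 ± 0.09) rose as well, while Hif1a, the oxygen-sensitive transcription factor, fell (-0.83 ± 0.15, adjusted p = 0.000752). Of 34 lysosome and autophagy genes 6 fell (17.6%, against 6.49%) and 1 rose (2.94%, against 4.45%), and 31 of the 34 lay above that level too. Ctsh, a lysosomal protease, ranged between 9.12 and 10.01 (median 9.67) in Old ND and between 11.16 and 11.48 (median 11.39) in Young ND. It was 3.34-fold lower without overlap (-1.74 ± 0.16, adjusted p = 3.97e-07). Atp6v0d1 of the proton pump (-0.58 ± 0.08) and the cholesterol exporter Npc1 (-0.55 ± 0.08) fell, and the acid lipase Lipa rose (0.47 ± 0.08). The rises among antioxidant and drug-metabolizing genes included Aox1 (0.99 ± 0.11), Gstt1 (0.85 ± 0.12) and the retinoic acid hydroxylase Cyp26b1 (0.54 ± 0.11), while the haem oxygenase Hmox1 fell with overlapping arrays (-0.85 ± 0.20).

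Of 45 genes of DNA replication and mitosis 3 rose (6.67%, against 4.45% of all genes) and 1 fell, and 1 rose without Young ND replicate 2. Of 27 cell cycle inhibitors and p53 targets 5 rose (18.5%) and 1 fell. Cdkn1c, an inhibitor of cyclin-dependent kinases from an imprinted locus, rose by 0.65 ± 0.12, Cdkn2c by 0.43 ± 0.10 and the proapoptotic gene Pmaip1 by 0.79 ± 0.17. Of 25 chromatin factors of growing tissue 5 rose (20.0%) and 0 fell, with 3 rises without Old ND replicate 2 or 3 or Young ND replicate 2. They included the high mobility group genes Hmgb2 (0.87 ± 0.18, and 0.56 averaged over its 2 probe sets), Hmga2 (0.86 ± 0.18, and 0.36 averaged over its 4 probe sets) and Hmgb3 (0.81 ± 0.20). Of 17 clock genes 2 rose and 2 fell (11.8% each, against 4.45% and 6.49% of all genes). Clock, the core activator, read 7.17, 7.19, 7.26, 7.5 and 7.42 in Old ND, against 7.89, 7.88, 7.95, 7.93 and 8.05 in Young ND, with no overlap (-0.63 ± 0.08, adjusted p = 1.26e-05, and -0.42 averaged over its 4 probe sets), and the output regulators Tef and Hlf rose by 0.49 ± 0.09 and 0.69 ± 0.14. The hour of collection is not given in the sources used here.

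The 20 largest falls included genes of varied known roles. Camk2a, a calcium-dependent kinase of synapses, read 6.33, 6.26, 6.39, 6.1 and 5.94 in Old ND, against 9.09, 9.01, 8.08, 7.58 and 7.77 in Young ND, -2.10 ± 0.25 on its brightest probe set and -0.90 averaged over its 6 probe sets. Adcy1, a neuronal adenylyl cyclase (-2.03 ± 0.18), Gria4, a glutamate receptor subunit (-1.96 ± 0.22, and -1.14 averaged over its 3 probe sets), and Basp1, a growth cone protein (-1.88 ± 0.23), fell without overlap. Clec11a, a growth factor for bone-forming cells, fell by 1.98 ± 0.17, Fkbp11, a prolyl isomerase of the endoplasmic reticulum, by 1.89 ± 0.14 (and by 0.68 averaged over its 3 probe sets), and Tgm2, a matrix crosslinking transglutaminase, by 2.47 ± 0.43, with Young ND arrays between 8.14 and 10.97. Among the 20 largest rises were Mgp, an inhibitor of calcification (1.83 ± 0.25), Tns3, a focal adhesion protein (1.71 ± 0.20, and 0.89 averaged over its 2 probe sets), Plscr4, a phospholipid scramblase (1.71 ± 0.19, and 1.01 by the same average, with its Young ND mean of 4.52 below the lower quartile), and Cldn1, a tight junction protein (1.68 ± 0.38). For Cldn1 the difference was 2.36 in the first run, against 0.68 in the second.

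**Figure D5:**
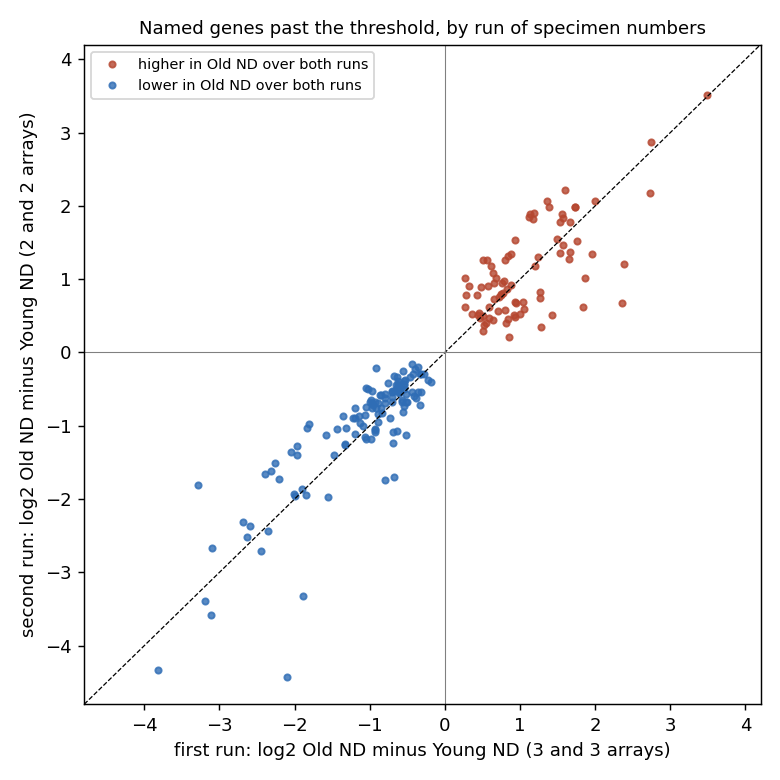
Difference of each named gene that passed the test, as log2 Old ND minus Young ND, within the first run of array numbers (horizontal axis, 3 Old ND and 3 Young ND arrays) and within the second (vertical axis, 2 and 2 arrays). Red points rose and blue points fell over both runs, and the dashed line marks equal differences. Each plotted gene has the same sign in both runs, and Cldn1 and Cbr2 are among those far from the line. The genes were picked by their calls over both runs, so the shared sign is largely set by that choice.

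Old ND arrays differed more among themselves than Young ND arrays on the measure used here. The distance of an array from the mean of the other 4 arrays of its group, taken as the root mean square over genes, was 0.261, 0.312, 0.251, 0.235 and 0.245 for the Old ND arrays and 0.232, 0.208, 0.186, 0.222 and 0.230 for the Young ND arrays. All 5 Old ND distances lay above all 5 Young ND distances. Their mean was 0.261 ± 0.030 in Old ND, against 0.216 ± 0.019 in Young ND (SD, n = 5 each), a difference of 0.0452 with an exact permutation p of 0.00794 (two-sided, the smallest that 5 against 5 arrays can give). Distances within a group share arrays, so they are not fully independent. The most distant array, Old ND replicate 2, had an SD over genes of 1.81 and a lower quartile of 4.66. On the other arrays these lay between 1.89 and 1.97 and between 4.49 and 4.55. Without it the exact permutation p was 0.0476. The remaining Old ND distances were then taken from a mean of fewer arrays than the Young ND distances, which by itself raises them. Mean keratinocyte marker levels also ranged more widely in Old ND (5.72 to 8.03) than in Young ND (6.13 to 7.24). The part of array quality or other cells in the distances was not tested. With the median absolute difference over genes in place of the root mean square the exact permutation p was 0.0556. Without Old ND replicate 3 or Young ND replicate 2, 3, 4 or 5 the exact permutation p lay between 0.0794 and 0.111. Leaving out a Young ND array raises the Young ND distances in the same way.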

How the data were processed

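Dermal fibroblasts of 20 mice were measured on 1 Affymetrix array each. The deposited values are log2 expression levels that the authors made with RMA in the affy package, per the submitters' processing notes, whose versions and settings are not given in the sources used here. RMA subtracts background, quantile-normalizes the arrays and summarizes probes, so it compresses dim genes. The values ran from 2.71 to 13.46 and array medians from 5.27 to 5.34. Precision depends on how many arrays there are (median standard error 0.0965).

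Of 45141 probe sets 28898 named 1 gene, 551 several and 15692 none. 28689 matched RefSeq (GRCm38.p6) by Entrez number, and each of 17097 genes took the probe set whose mean over the 20 arrays was highest. limma 3.58.1 in R 4.3.3 fitted 1 mean per group to all 20 arrays (16 residual degrees of freedom), and p-values for Old ND minus Young ND were Benjamini-Hochberg adjusted over all genes at 0.05. Single values were compared by exact permutation in scipy 1.17.1. Tested on simulated data with known changes, the fit recovered 55 of 74 genes with a true log2 change of 0.5 and 66 of 68 with one of 1.

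The genes and lists were chosen with earlier results of these data known. Named genes are list members, the 20 largest non-overlapping rises and falls whose higher group mean exceeded the median gene level (5.88), and family neighbours. Predicted genes and near-identical families were set aside, of which Csprs, Ctla2a, Tgtp1 and Obox2 were recognized after their values were seen. The labels describe the 5 mice per group as biological replicates and state that 3 mice of different groups were collected per day. The day of each array is not given, so the 2 runs of title numbers were used in its place.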

Additional observations from a re-analysis of the deposited data

Results flagged for a closer look

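Among 428 groups of 5 arrays examined for the reported genes, 20 (4.67%) held 1 array farther from the rest than Dixon's criterion allows (gap over range above 0.71). Chance flags about 1 in 20 such groups. Of the 20 arrays, 11 were Young ND replicate 1 and 3 were Old ND replicate 2.

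Young ND replicate 1 stood above the other Young ND arrays for Plat (7.19 against 6.85 to 6.94), Thbd (6.92 against 6.13 to 6.32), Col15a1 (11.40 against at most 11.11) and the transcription factor gene Ebf2 (6.42 against 5.68 to 5.89). It stood below them for Ccn2 (4.74 against 5.19 to 5.31), C4b (8.06 against 8.74 to 9.01), Gas6 (11.58 against 12.25 to 12.41), Flrt1 (6.94 against 9.07 to 9.86), the oxytocin receptor gene Oxtr (7.85 against 9.42 to 9.96), Apoe (6.88 against 7.30 to 7.40) and Tmem176b (7.57 against 8.03 to 8.11).

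Old ND replicate 2 was low for Sar1b (7.95 against 8.28 to 8.36) and Plscr4 (5.40 against 6.35 to 6.54) and high for Bdnf (4.36 against 3.83 to 3.95). Old ND replicate 4 was high for Psat1 (6.65 against 6.44 to 6.50), and Old ND replicate 5 for Ldhb (8.04 against 7.69 to 7.73). The other Young ND cases were Cdkn2c in replicate 2 (4.67 against 4.93 to 5.00), Reck in replicate 3 (8.35 against 7.60 to 7.73), Unc5b in replicate 4 (8.01 against 8.28 to 8.38) and Fzd7 in replicate 5 (5.95 against 6.28 to 6.32). The genes named here kept their calls when the array concerned was left out.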

How the results depend on the processing

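Of the 208 named genes that passed, 131 passed under every alternative run and 0 changed sign. Calls of 5 genes, Ddost, Tmed10, Sec24b, P4hb and Cd34, were lost without some array. With the probe set of largest interquartile range 9 were lost (Arf4, Loxl1, Xbp1, Ntn1, Rgmb, Dkk3, Masp1, Tef and Ebf2), with a second quantile normalization 3 (Ddost, Tmed10 and Cd34), and with array weights 3 (Tmed10, Sec24b and Psat1). Fewer arrays cost more calls: 13 with the 10 arrays alone, 29 in run 1 and 51 in run 2, where Wnt5a changed by -0.21 and Igfbp4 by 1.20. Against 1870 changed genes over all arrays, run as a block gave 2567 (1078 rose, 1489 fell), averaged probe sets 2119, a second quantile normalization 2089, the first run alone 1494 and the second alone 1049 (477 fell), and all arrays gave 1029 at an adjusted p of 0.01 (373 rose, 656 fell) and 227 at 2-fold or more (110 rose, 117 fell). Leaving out 1 array gave 1454 to 1847. In the collagen processing list 10 genes fell within the second run. Creb3l2, not passed, ranged between -0.10 and 0.17 without 1 array, below 0 without Old ND replicate 1 or 3 or Young ND replicate 4 or 5, and Sec24c, not passed, was 0.10 with the other probe set. The array distance differed by 0.0240 (exact permutation p = 0.0556) with the median absolute difference, by 0.0397 (p = 0.0318) over genes above the median and by 0.0522 (p = 0.0397) with the run removed, and leaving out 1 array gave 0.0285 to 0.0630 with exact p between 0.0159 and 0.111. Without 1 array the distances of its group are taken from fewer arrays, which by itself raises them. Within the list of 31 ribosomal protein genes 6 rose, between 2 and 17 without 1 array (17 without Old ND replicate 2). No paired analysis was possible because the labels give no replicate numbers. Falls of dim genes, near background on the array, are compressed and can be missed.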

Other observations

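Respiratory chain and ribosomal genes changed in a minority of members. Of 36 oxidative phosphorylation subunits 6 fell (16.7%, against 6.49% of all genes) and 0 rose, with a median of -0.21 and 31 of 36 below 0. Of the 36, 35 lay above the median gene level, where the share of genes that fell was higher than 6.49%. The falls numbered 4 to 11 without 1 array, 11 of them without Old ND replicate 5, and 13 with run as a block. Ribosomal proteins of the cytosol had 6 rises (19.4%, against 4.45% of all genes) and 0 falls among 31 genes, with a median of 0.21. Of the 31, 30 lay above the median gene level. Of 48 positional and mesenchymal transcription factors 5 rose and 1 fell, and of 21 markers of reticular and hypodermal fibroblasts 1 rose and 4 fell, against 2 and 2 of 27 papillary markers. Of 19 genes of the imprinted growth network 2 rose (10.5%) and 6 fell (31.6%).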
